A study of Danio rerio with 44 samples.

Results

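The collagen genes of the zebrafish were followed across 44 pools of whole embryos exposed to 3 fluorinated compounds. A gene was counted as a collagen when its symbol, in either case, read as col, a type number, a and a chain number, with at most a copy letter after it. This held for 57 of the 25859 genes in the count table. They span 22 collagen types, and all 57 passed the filter on low counts. The rule reads symbols only. By type number, 15 are fibrillar collagens, 9 are basement membrane collagens and 33 are other collagens. The basement membrane class holds 6 chains of type IV and 3 multiplexins (types XV and XVIII). The other class holds 12 fibril-associated (FACIT) genes, 5 type VI genes, 5 short-chain genes (types VIII and X), 4 transmembrane genes (types XVII and XXIII) and 7 genes of types VII and XXVIII. Symbols follow the annotation table, some in capitals, and 10 collagen rows share their symbol with another row, so the identifier stands beside those.

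Collagens are matrix proteins whose chains wind into a triple helix. Fibrillar types build the ropes of skin, tendon, bone, cartilage and notochord sheath, type IV builds the sheet of every basement membrane, and FACIT, type VI and transmembrane types tie fibrils to each other, to basement membranes and to cells. Chains are hydroxylated and glycosylated in the endoplasmic reticulum, folded, exported, trimmed, cross-linked and later cut by metalloproteinases. In the zebrafish embryo they are made by fibroblasts, chondrocytes, osteoblasts, notochord cells, endothelium and epidermis.

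Wild-type embryos were held in the test solutions from 24 to 96 hours after fertilization, 72 h in all. PFOS is perfluorooctane sulphonate, PFECHS is perfluoroethylcyclohexane sulphonate, which has a ring where PFOS has a straight chain, and FBSA is perfluorobutane sulphonamide, which has a shorter chain and an amide head group. Each compound had its own solvent control and was tested at 5, 1, 0.1 and 0.001 mg/L. Every group, the controls included, carried 0.1% DMSO. A pool held 20 embryos, and there were 3 pools per group in 15 groups, except for FBSA at 0.1 mg/L with 2 pools. Nothing in the labels says whether the pools of a group came from separate clutches, so the p-values speak only of how much such pools vary. In whole embryos, fewer cells of a type and less RNA per cell cannot be told apart.

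Library totals ran from 24478738 to 36533705 estimated counts. For CPM, counts were scaled to the library's total over the genes tested, times its TMM normalization factor. On that scale 1 count was worth 0.0275 to 0.0428 CPM. Fold changes below are on the log2 scale with their standard error (SE), from edgeR's quasi-likelihood test, and adjusted p is Benjamini-Hochberg over all 22703 genes tested, called below 0.05. Among fibrillar genes the highest count belonged to COL2A1 (ENSDARG00000069093), the cartilage and notochord collagen, with a mean of 1349 CPM over the 44 pools (754 to 3105). Among basement membrane genes it belonged to col4a5, with 211 CPM (103 to 393), and among the others to COL9A2, a fibril-associated cartilage chain, with 236 CPM (124 to 572). Near-identical copies such as col1a1a and COL1A1 may share reads, and neither the counting program nor its use of strand is given in the sources used here. Gene lengths were not used, so levels of different genes are not compared.

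In PFOS pools nearly every collagen had a positive estimate against the PFOS controls, in every class and at every concentration, and no collagen passed the test. The median log2 fold change over the 57 collagens was 0.51 at 0.001 mg/L, 0.69 at 0.1 mg/L, 0.42 at 1 mg/L and 0.55 at 5 mg/L, while the median over all genes tested was 0.02, 0.03, 0.03 and 0.04. Of the 57 estimates, 53, 56, 55 and 53 were above 0 in that order, against 52.8%, 52.8%, 54% and 54.8% of all genes. All 4 concentrations were set against the same PFOS control pools, and most collagens varied together between pools, as given below. The 4 counts are therefore not separate observations, nor are the genes within each, and the shares of all genes do not allow for this. The same limit holds for later counts by concentration, as the groups of a compound share its controls. The sizes did not follow the concentration, as the 1 mg/L pools had the smallest median. Averaged over the 4 concentrations with equal weight, the median was 0.57 for all collagens, 0.50 for fibrillar, 0.56 for basement membrane and 0.58 for other collagens, beside 0.03 for all genes. In that mean 56 of 57 estimates were above 0 (background 53.6%), made up of 15 of 15 fibrillar, 8 of 9 basement membrane and 33 of 33 other collagens.

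No collagen passed edgeR's adjusted threshold at any PFOS concentration or in their mean, with a background of 0% of all genes called at 0.001 mg/L, 0.0176% at 0.1 mg/L, 0.00881% at 1 mg/L, 0.0132% at 5 mg/L and 0.0132% in the mean. At an unadjusted p under 0.05, 7 collagens were higher at 0.001 mg/L (background 3.79%), 18 at 0.1 mg/L (7.47%), 6 at 1 mg/L (4.18%) and 10 at 5 mg/L (4.32%). In the mean of the 4 concentrations 19 were higher at that level (background 6.99%), and no collagen was lower in any of the 5 comparisons (backgrounds 2.98%, 7.65%, 3.71%, 3.66% and 7.62%). DESeq2, run as an alternative, called 1 collagen each at 0.1 mg/L, at 5 mg/L and in the mean, which was col4a3 in each case, where it called 41, 100 and 88 genes in all. A fit on the PFOS libraries alone called 5 collagens of 376 genes at 0.1 mg/L, 1 of 40 at 5 mg/L and 4 of 246 in the mean.

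**Figure D1:**
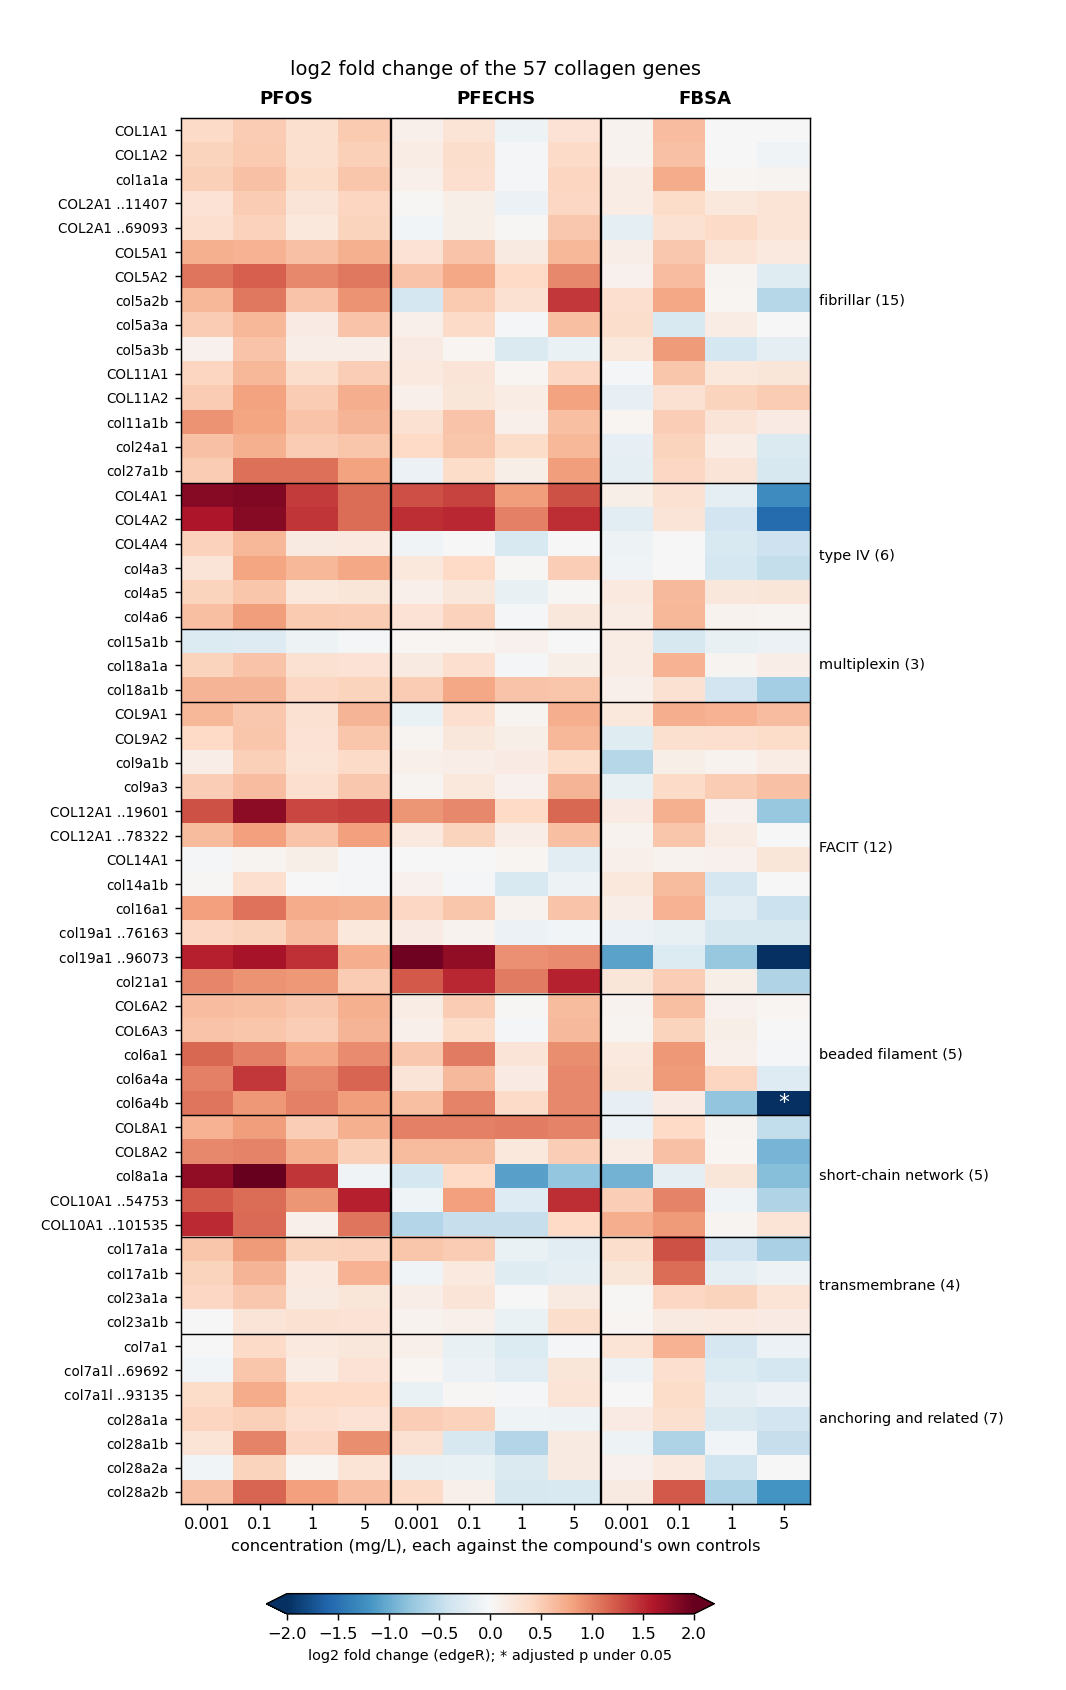
Log2 fold change of each of the 57 collagens (rows, ordered by class and subclass) in the 12 comparisons of a concentration (mg/L) with the compound's own solvent control (columns); colour runs from −2 to 2 and a star marks an adjusted p below 0.05. The PFOS columns are nearly all on the positive side, and the 1 star is col6a4b in FBSA at 5 mg/L.

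All pools of an exposed group lay above all PFOS control pools for 25 of 57 collagens at 0.001 mg/L, against 16.4% of all genes. The number was 26 at 0.1 mg/L (background 15%), 5 at 1 mg/L (background 8.7%) and 26 at 5 mg/L (background 11.1%), and no collagen lay below the controls in the same way (backgrounds 15%, 14.5%, 7.85% and 9.56%). As a share of the 57 these are 43.9%, 45.6%, 8.77% and 45.6%, so the 1 mg/L share stood at its background. When all 12 exposed pools were set against the 3 controls, 4 collagens were fully apart (7.02%, background 1.81%): col4a3, COL4A2, col19a1 (ENSDARG00000076163) and COL10A1 (ENSDARG00000054753). Per pool, the mean log2 CPM of the 57 collagens was 3.97 to 4.64 in PFOS controls (median 4.30) and 4.23 to 5.38 in exposed pools (median 4.95). The lowest exposed pool was replicate 3 at 1 mg/L, and it lay inside the control range.

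**Figure D2:**
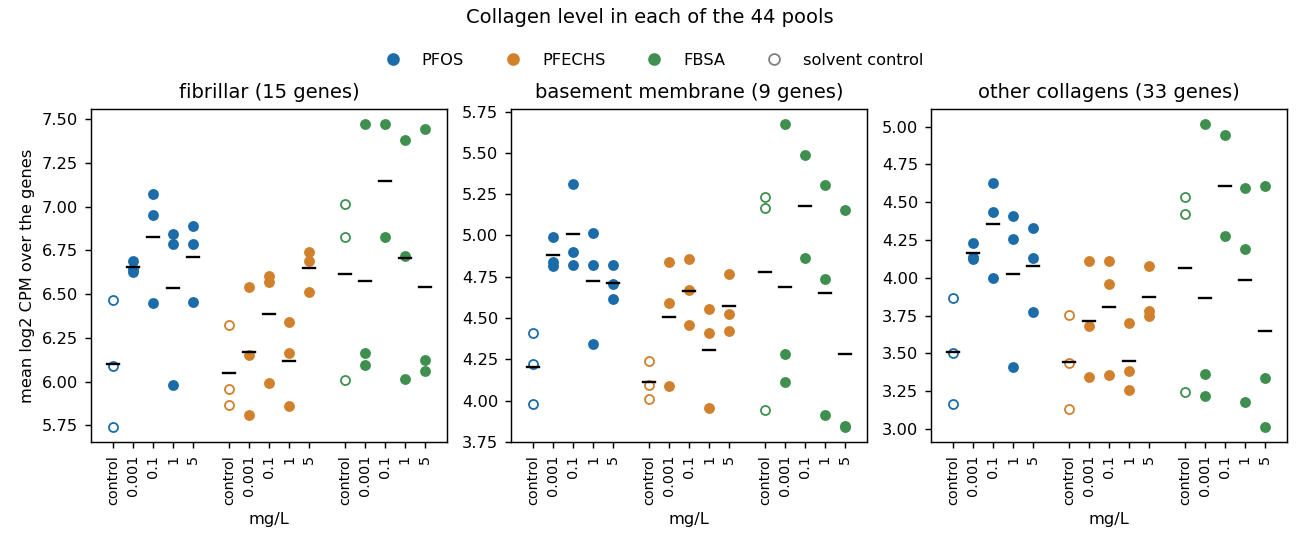
Mean log2 CPM of the fibrillar, basement membrane and other collagens in each of the 44 pools, by compound and concentration (mg/L); open points are solvent controls and bars are group means. PFOS controls sit at the low end of the PFOS pools in each class, and FBSA pools of the same group lie far apart.

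Type IV collagen chains gave the smallest p-values under PFOS. The chains are encoded by neighbouring genes, and in the RefSeq gene table (assembly GRCz12tu) col4a1 lies beside col4a2, col4a3 beside col4a4 and col4a5 beside col4a6, each pair on 1 chromosome with 0 protein-coding genes between its members. The median of the 6 type IV genes was 0.62 in the PFOS mean, against 0.40 for the 3 multiplexins. col4a3 (ENSDARG00000003395), a chain of the specialised type IV network best known from the kidney glomerulus, measured 5.97, 5.76 and 5.55 CPM in the PFOS controls. It measured 7.04, 7.02 and 6.57 CPM at 0.001 mg/L, 8.75, 11.6 and 9.61 CPM at 0.1 mg/L, 10.5, 10.1 and 6.86 CPM at 1 mg/L, and 10.1, 10.4 and 9.2 CPM at 5 mg/L. Every exposed pool lay above every PFOS control.

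The col4a3 estimates were 0.79 ± 0.18 (SE) at 0.1 mg/L with adjusted p = 0.108, 0.67 ± 0.18 at 1 mg/L with adjusted p = 0.335 and 0.78 ± 0.18 at 5 mg/L with adjusted p = 0.141. The mean over the concentrations was 0.62 ± 0.15 with adjusted p = 0.160. Under DESeq2 the adjusted p of col4a3 was 0.0118 at 0.1 mg/L, 0.0141 at 5 mg/L and 0.0177 in the mean, and with the PFOS libraries alone it was 0.0367 at 0.1 mg/L and 0.0441 in the mean.

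COL4A1 and COL4A2 encode the chains of the ordinary type IV network. COL4A2 (ENSDARG00000104110) measured 4.46, 3.14 and 4.97 CPM in PFOS controls, 13, 10.7 and 14.9 CPM at 0.001 mg/L, 20.9, 8.76 and 14.9 CPM at 0.1 mg/L, 17, 11.1 and 5.57 CPM at 1 mg/L, and 6.41, 5.57 and 15.1 CPM at 5 mg/L. The exposed pools of COL4A2 were spread widely but all lay above the controls. COL4A2 had a mean estimate of 1.50 ± 0.58 with adjusted p = 0.270, and COL4A1 had 1.55 ± 0.66 with adjusted p = 0.301. At 0.001 mg/L, where COL4A2, COL4A1 and col6a4b had the smallest p-values, the estimates were 1.62 ± 0.67, 1.82 ± 0.77 and 1.07 ± 0.48, each with adjusted p = 0.612.

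The members of a type IV pair gave near values under PFOS from 0.001 to 5 mg/L in the first pair and less so in the others. COL4A1 and COL4A2 gave 1.82 and 1.62, 1.85 and 1.83, 1.40 and 1.43, then 1.11 and 1.11. The neighbours col4a3 and COL4A4 gave 0.26 and 0.46, 0.79 and 0.66, 0.67 and 0.18, then 0.78 and 0.20. The neighbours col4a5 and col4a6 gave 0.44 and 0.60, 0.55 and 0.83, 0.22 and 0.52, then 0.24 and 0.50. col4a5 itself held 202, 154 and 190 CPM in PFOS controls and 325, 241 and 233 CPM at 0.1 mg/L, where the pools were apart, and 210, 200 and 234 CPM at 5 mg/L, where they overlapped. Among the multiplexins, col15a1b was the basement membrane gene with a negative estimate, with 53.7, 69.8 and 66.8 CPM in PFOS controls and 52.3, 53.1 and 53.9 CPM at 0.1 mg/L.

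**Figure D3:**
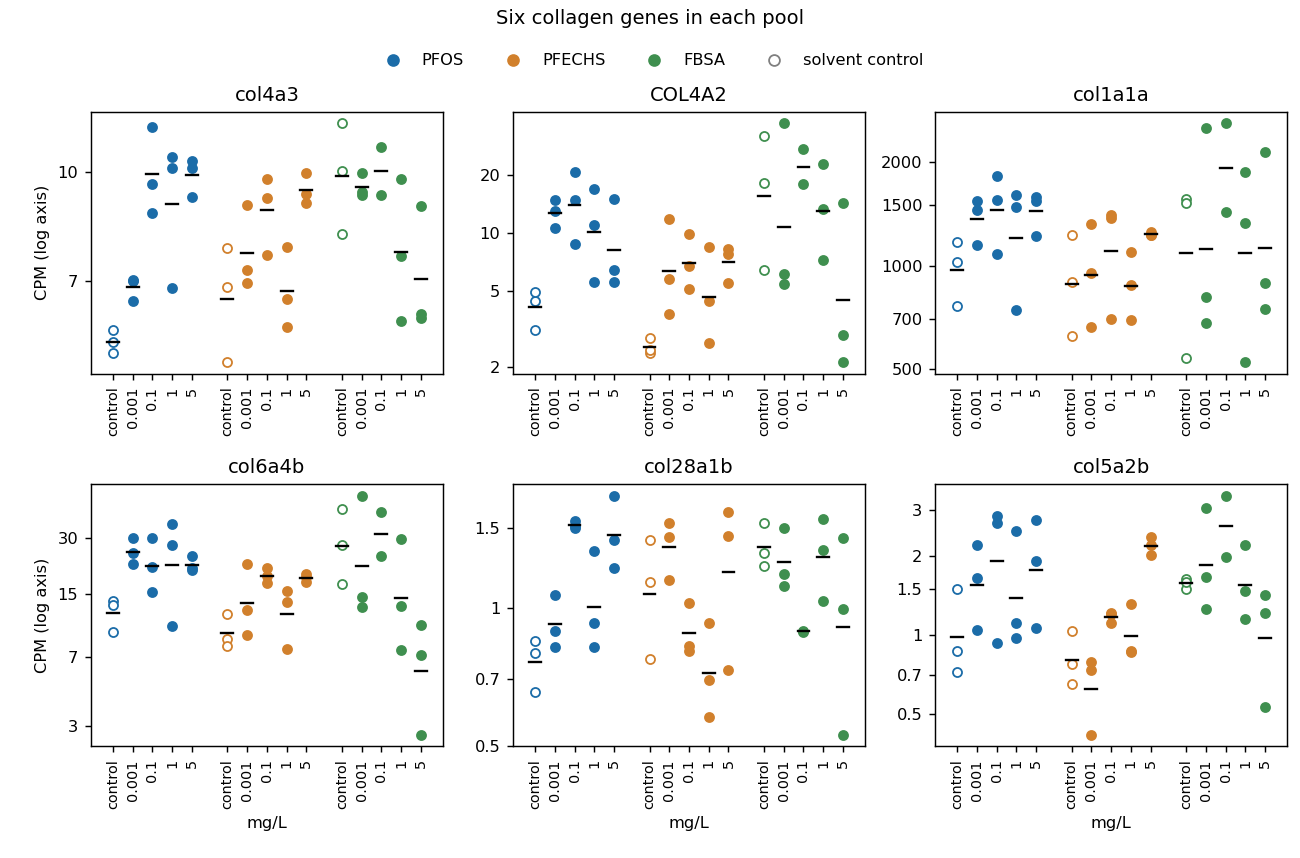
CPM (log axis) of col4a3, COL4A2, col1a1a, col6a4b, col28a1b and col5a2b in every pool, by compound and concentration (mg/L); open points are solvent controls and bars are geometric means. For col4a3 and COL4A2 the PFOS controls lie below all exposed PFOS pools, and for col6a4b the FBSA pools at 5 mg/L lie below all FBSA controls.

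The fibrillar collagens had the smallest class median in the PFOS mean, but the classes were not tested against each other. Between pools of a group a class median itself varied. Its standard deviation, pooled over the groups of all compounds, was 0.589 log2 CPM for fibrillar, 0.639 for basement membrane and 0.398 for other collagens. This includes the FBSA groups, whose pools spread more than those of PFOS, as given below. It is the spread of a level between pools, not of a difference between classes. The type I chains of skin and bone had PFOS means of 0.50 ± 0.37 for col1a1a (adjusted p = 0.503), 0.44 ± 0.35 for COL1A1 and 0.44 ± 0.32 for COL1A2. These directions depend on the model: with the main axis of variation between pools as a term, the estimates were −0.12, −0.11 and −0.059. The col1a1a pools held 1028, 764 and 1177 CPM in PFOS controls and 1548, 1219 and 1591 CPM at 5 mg/L, which do not overlap, but 1479, 1607 and 742 CPM at 1 mg/L, which do. The cartilage collagen COL2A1 gave 0.36 ± 0.28 for ENSDARG00000069093 and 0.37 ± 0.20 for ENSDARG00000011407. For COL2A1 (ENSDARG00000069093) the controls held 1007, 754 and 1523 CPM and the 5 mg/L pools 1656, 1409 and 1405 CPM, with an overlap. COL11A2, which joins type II in cartilage fibrils, gave 0.64 ± 0.31 with adjusted p = 0.341.

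The largest fibrillar estimates among the small p-values belonged to type V, which sets fibril diameter. COL5A2 held 71.4, 55.1 and 90.8 CPM in PFOS controls, 211, 122 and 166 CPM at 0.1 mg/L and 160, 118 and 174 CPM at 5 mg/L. The exposed pools at both concentrations lay above the controls. Its mean estimate was 1.07 ± 0.42 with adjusted p = 0.271. Of the further type V genes col5a3a gave 0.47 ± 0.20, and col27a1b, a fibrillar cartilage collagen, gave 0.88 ± 0.37.

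Among the other collagens, type VI and the short-chain types had the largest PFOS medians, 0.94 and 0.95 in the mean of the concentrations. The short-chain median includes col8a1a, at 0 counts in its lowest pool, and a COL10A1 row (ENSDARG00000101535) with a mean of 0.358 CPM. Type VI forms beaded filaments around muscle, tendon and cartilage cells. The type VI gene col6a4a (ENSDARG00000079752) held 14.1, 10.6 and 17.4 CPM in PFOS controls, 44.8, 29.9 and 38 CPM at 0.1 mg/L and 32.9, 27.2 and 34.7 CPM at 5 mg/L, with no overlap. The col6a4a estimate was 1.42 ± 0.49 at 0.1 mg/L (adjusted p = 0.250), 1.17 ± 0.49 at 5 mg/L (adjusted p = 0.540) and 1.14 ± 0.41 in the mean (adjusted p = 0.251). With the PFOS libraries alone its adjusted p was 0.0367 at 0.1 mg/L and 0.0424 in the mean. The common chain col6a1 gave 0.96 ± 0.58 with adjusted p = 0.417.

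Type X is the collagen of hypertrophic cartilage and, in fish, of bone-forming cells. COL10A1 (ENSDARG00000054753) held 9.02, 7.93 and 14.3 CPM in PFOS controls and 32.8, 35.1 and 24.1 CPM at 5 mg/L. Its 12 exposed pools all lay above the controls, and its mean estimate was 1.20 ± 0.58 with adjusted p = 0.339, or 0.0393 with the PFOS libraries alone. The second COL10A1 row (ENSDARG00000101535) had few counts and gave 0.95 ± 0.69. The type VIII gene col8a1a was at 0 in at least 1 pool, so no fold is given for it.

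The FACIT median was 0.52, the transmembrane median 0.42, and the median of types VII and XXVIII 0.38. COL12A1 (ENSDARG00000019601), which coats fibrils in tendon and fascia, gave 1.45 ± 0.62. This row had a mean of 15.5 CPM and PFOS estimates from 1.28 to 1.79 over the concentrations. The second COL12A1 row (ENSDARG00000078322), with a mean of 140 CPM, had smaller ones, from 0.57 to 0.83. COL9A2 overlapped at 5 mg/L, with 164, 124 and 255 CPM in PFOS controls and 292, 253 and 247 CPM in exposed pools. The hemidesmosome collagens of basal epidermis gave 0.58 ± 0.59 for col17a1a and 0.51 ± 0.45 for col17a1b, and with the main axis as a term −0.36 and −0.24. At 1 mg/L the smallest p-values after col4a3 belonged to col19a1 (ENSDARG00000076163) at 0.62 ± 0.22 and to the transmembrane gene col23a1b at 0.31 ± 0.12. These were among the 5 genes whose 1 mg/L pools lay apart from the controls.

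The type XXVIII gene col28a1b (ENSDARG00000087087) had low counts and an even spread. It held 0.656, 0.8 and 0.848 CPM in PFOS controls, 1.55, 1.52 and 1.5 CPM at 0.1 mg/L and 1.22, 1.41 and 1.76 CPM at 5 mg/L. Both exposed groups lay above the controls. The col28a1b estimate was 0.98 ± 0.30 at 0.1 mg/L (adjusted p = 0.233), 0.93 ± 0.30 at 5 mg/L (adjusted p = 0.345) and 0.65 ± 0.25 in the mean (adjusted p = 0.264).

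Under PFECHS the collagen medians were smaller and less even, at 0.14, 0.35, 0.03 and 0.49 from 0.001 to 5 mg/L and 0.23 in the mean, with 45 of 57 mean estimates above 0 (background 52%). By class the median of the mean was 0.26 for fibrillar, 0.23 for basement membrane and 0.19 for other collagens. edgeR called no collagen at any PFECHS concentration or in the mean, where the background was 0% throughout, and DESeq2 called none either. At an unadjusted p under 0.05, 1 collagen was higher at 0.001 mg/L (background 2.45%), 4 at 0.1 mg/L (2.24%), 0 at 1 mg/L (1.15%) and 8 at 5 mg/L (4.23%). In the mean there were 2 (background 3.12%), and no collagen was lower in these 5 comparisons (1.32%, 1.48%, 0.727%, 2.8% and 2.5% of all genes). Exposed pools lay above all PFECHS controls for 2 collagens at 0.001 mg/L (background 6.68%), 20 at 0.1 mg/L (9.14%), 0 at 1 mg/L (4.11%) and 24 at 5 mg/L (11.4%). For all 12 exposed pools the number was 0 (background 0.44%).

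The smallest PFECHS p-value at 5 mg/L belonged to col5a2b (ENSDARG00000024847), a copy of the type V chain gene. It held 0.776, 0.649 and 1.03 CPM in PFECHS controls and 2.36, 2.02 and 2.21 CPM at 5 mg/L, with no overlap, at 1.42 ± 0.44 and adjusted p = 0.704. The next genes at 5 mg/L were col23a1b at 0.36 ± 0.12 and col4a3 at 0.49 ± 0.18, with the same adjusted p. COL4A2 held 2.37, 2.86 and 2.46 CPM in PFECHS controls and 5.48, 8.24 and 7.8 CPM at 5 mg/L, and its mean estimate was 1.37 ± 0.59 with adjusted p = 0.792. The FACIT gene col21a1 gave 1.33 ± 0.58 and col4a3 gave 0.28 ± 0.14 in the mean. COL10A1 (ENSDARG00000054753) went from 10.4, 8.94 and 9.38 CPM in PFECHS controls to 28.8, 32.6 and 18.1 CPM at 5 mg/L, also apart. At 1 mg/L the smallest p belonged to col28a1b at −0.59 ± 0.30 with adjusted p = 1.0. Across the 4 exposed groups no PFOS or PFECHS slope passed the test (0.0176% and 0% of all genes), and 2 collagens in each had an unadjusted p under 0.05 (backgrounds 5.68% and 1.65%). The smallest p belonged to col4a3 in PFOS, at 0.14 ± 0.06 per concentration step (adjusted p = 0.700), and to col5a2b in PFECHS, at 0.51 ± 0.14 (adjusted p = 1.0). DESeq2 called none of these slopes either.

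In the fit over all libraries, FBSA at 5 mg/L gave the only collagen that passed the test against its own control, col6a4b, which fell. Among the collagen classes the basement membrane median was −0.41 there, the type IV median −0.44, the short-chain median −0.61 and the median of types VII and XXVIII −0.34, while the fibrillar median was 0.01. These classes were not tested against each other. Over the 57 collagens the median was −0.12 and 22 estimates were above 0 (background 48.8%). Of all genes 11.2% were called in this comparison (5.79% higher and 5.44% lower), against 1 of 57 collagens. With the FBSA libraries alone it called 0 collagens and 0 of all genes. A fit on the PFOS libraries alone did call collagens, as given above, so which compound has called collagens depends on the fit. FBSA controls 2 and 3 stood among the last 11 columns of the count table and no FBSA pool at 5 mg/L did. Place in the table is thus partly confounded with this comparison. Without replicate 2 of the exposed pools 8 collagens were called, of 5197 genes called in all, and without replicate 3 of the controls 4 of 3487. At an unadjusted p under 0.05 no collagen was higher (background 13.8%) and 4 were lower (background 14.2%).

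The type VI gene col6a4b (ENSDARG00000112419) held 27.6, 42.3 and 17 CPM in FBSA controls and 7.15, 10.4 and 2.72 CPM at 5 mg/L, with no overlap. It fell by 2.10 ± 0.50 on the log2 scale, with adjusted p = 0.00823. Across the 4 exposed FBSA groups it held 49.8, 14.6 and 12.9 CPM at 0.001 mg/L, 41.1 and 23.9 CPM at 0.1 mg/L and 13.1, 7.63 and 29.6 CPM at 1 mg/L, and its slope was −0.67 ± 0.16 per concentration step with adjusted p = 0.00926 (7.35% of all genes called). By slope, 6 collagens had an unadjusted p under 0.05 downward and 0 upward (backgrounds 12.4% and 11.8%). The call at 5 mg/L was lost for col6a4b without replicate 3 of the exposed pools (−1.72, adjusted p = 0.121), without replicate 2 of the controls (−1.72, adjusted p = 0.0773) and with the FBSA libraries alone (−2.09, adjusted p = 0.210). Its slope was called neither without replicate 1 at 0.001 mg/L (−0.40, adjusted p = 0.104) nor without replicate 3 at 5 mg/L (adjusted p = 0.118). With the FBSA libraries alone the slope was −0.67 with adjusted p = 0.279.

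Several further collagens of FBSA at 5 mg/L had small p-values without passing. The FACIT gene col19a1 (ENSDARG00000096073) gave −2.62 ± 0.92 with adjusted p = 0.0594, col4a3 gave −0.48 ± 0.18 with adjusted p = 0.0722 and COL4A2 gave −1.54 ± 0.66 with adjusted p = 0.120. This col19a1 row had a mean of 1.05 CPM over all pools and 1 count in its lowest pool, replicate 3 at FBSA 5 mg/L. The second col19a1 row (ENSDARG00000076163), with a mean of 16.5 CPM, had estimates from −0.32 to −0.12 over the FBSA concentrations. col4a3 held 11.7, 10 and 8.17 CPM in FBSA controls and 6.3, 8.93 and 6.21 CPM at 5 mg/L, and these overlap. COL4A2 held 18.3, 32 and 6.41 CPM in the controls and 2.14, 14.3 and 2.97 CPM at 5 mg/L, which also overlap. Apart from col6a4b, the gene col5a2b was the other collagen whose 5 mg/L pools all lay below the controls (2 of 57, background 9.27%), with 1.5, 1.63 and 1.6 CPM against 1.22, 1.42 and 0.529 CPM.

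At the lower FBSA concentrations the collagen medians were 0.09 at 0.001 mg/L, 0.44 at 0.1 mg/L and 0.05 at 1 mg/L, and 0.13 in the mean of the 4. edgeR and DESeq2 called no collagen in these 4 comparisons, where edgeR called 0% of all genes. At an unadjusted p under 0.05, for which the backgrounds were 1.14%, 3.22%, 6.6% and 6.88%, there was 1 collagen in all, col15a1b at 0.1 mg/L, lower at −0.32 ± 0.16 with adjusted p = 0.961. Pools at 0.1 mg/L lay above the controls for 14 collagens (background 7.2%) and below for 2 (background 7.73%), col15a1b and col28a1b, and at 1 mg/L below for 1, col15a1b (background 2.94%). No collagen lay above the controls at 0.001, 1 or 5 mg/L, with backgrounds of 1.44%, 3.27% and 8.07%. At 1 mg/L the smallest p belonged to col4a3 at −0.34 ± 0.18 (adjusted p = 0.765), and in the mean to col6a4b at −0.72 ± 0.36 (adjusted p = 0.738). COL9A1, a fibril-associated cartilage chain, gave 0.70 ± 0.37 at 1 mg/L and 0.56 ± 0.31 in the mean.

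The FBSA pools of a group differed far more in their collagens than those of the other compounds. The median within-group standard deviation over the 57 collagens was 0.766 log2 CPM for FBSA, 0.379 for PFOS and 0.365 for PFECHS, while over all genes it was 0.386, 0.255 and 0.252. The fit over all libraries gives each gene 1 estimate of spread for the 3 compounds, so its standard errors do not follow this difference. Type X and VIII genes spread most in FBSA (median 1.20), followed by type VI (0.939). COL10A1 (ENSDARG00000054753) shows it, with 74.8, 6.28 and 7.97 CPM in the 3 FBSA pools at 0.001 mg/L. col1a1a held 2523, 680 and 813 CPM in the same pools and 748, 2147 and 890 CPM at 5 mg/L. The gene at the other end was col15a1b, which over all 44 pools stayed between 47.9 and 78.7 CPM.

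**Figure D4:**
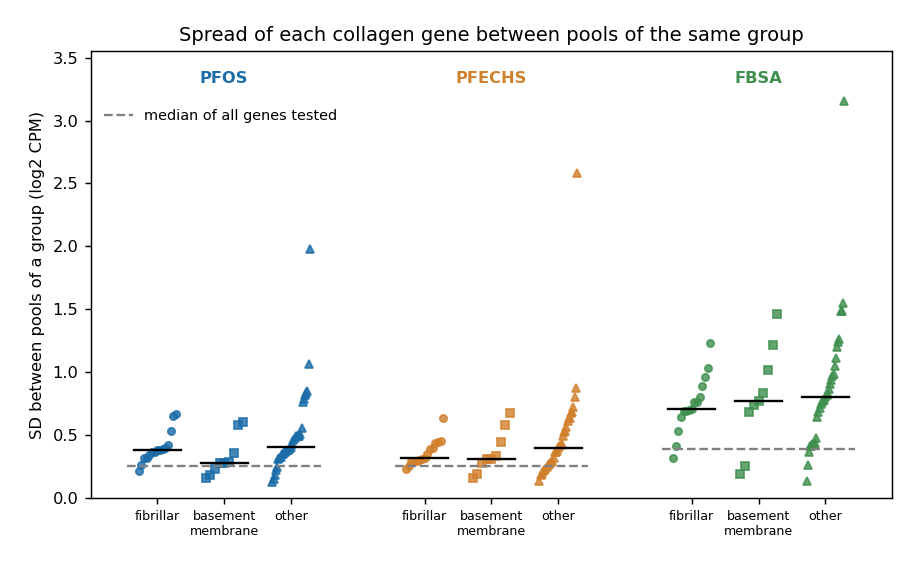
Standard deviation between pools of a group (log2 CPM, averaged over the groups of a compound) for each collagen, by class and compound; the black line is the median of the class and the dashed line the median of all genes tested. The FBSA medians lie above those of PFOS and PFECHS in each class.

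The collagens moved together between pools. The main axis of variation over all genes, the first principal component, held 29.2% of the variance, and 49 of 57 collagens had a correlation above 0.5 with it across the 44 pools (86.0%, against 23.6% of all genes). The sign of the axis was set so that a collagen, col1a1a, correlated positively with it. Negative correlations of any size are not counted in either share. These correlations describe pools that share a compound series and a table, and carry no test. The exceptions were col15a1b at −0.65, col4a3 at 0.48, col5a3a at 0.16, col28a1b at 0.32, col28a2a at 0.49, COL14A1 at 0.36, COL10A1 (ENSDARG00000101535) at 0.23 and col23a1b at 0.28. With that axis as a term in the fit the collagen median of the PFOS mean was 0.08 in place of 0.57. The axis includes the collagens themselves. PFOS controls lay at −22.9, −42.6 and −0.03 on it and exposed PFOS pools from −33.4 to 59.2. Such a fit can remove a change with exposure along with other variation, and cannot tell them apart. The type I and XVII estimates turned in the fit with the axis, as given with those genes.

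The changes were next compared between compounds at matched concentrations, as the difference of the changes against each compound's own control. There were 12 such comparisons, 3 pairs of compounds at 4 concentrations, and 3 more for the mean. Collagens were called at 5 mg/L only, and in each called case FBSA differed from a sulphonate. Between PFOS and FBSA at 5 mg/L 3 of 57 collagens were called (background 4.92%). The difference in log2 fold change was 1.26 ± 0.25 for col4a3 (95% interval 0.75 to 1.76, adjusted p = 0.00864), 2.93 ± 0.69 for col6a4b (1.53 to 4.34, adjusted p = 0.0185) and 1.39 ± 0.42 for col28a1b (0.54 to 2.25, adjusted p = 0.0485). Their own PFOS and FBSA estimates stand on opposite sides of 0 for col4a3, at 0.78 and −0.48. COL4A2 differed by 2.65 ± 0.94 and missed the threshold with adjusted p = 0.0832.

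Between PFECHS and FBSA at 5 mg/L 4 collagens were called (background 9.17%). The differences were 3.06 ± 0.70 for col6a4b (95% interval 1.64 to 4.47, adjusted p = 0.00945), 0.97 ± 0.25 for col4a3 (0.46 to 1.48, adjusted p = 0.0169), 1.99 ± 0.62 for col5a2b (0.73 to 3.25, adjusted p = 0.0389) and 3.02 ± 0.95 for COL4A2 (1.08 to 4.96, adjusted p = 0.0419). For col6a4b this compared 11.8, 8.67 and 8.02 CPM in PFECHS controls and 18.7, 17.4 and 19.3 CPM at 5 mg/L with the FBSA values above. The col4a3 call against PFOS and the col6a4b call against PFECHS held whichever pool was left out. The calls for col28a1b, COL4A2 and col5a2b were lost in most of those fits. With no filter on low counts col28a1b had adjusted p = 0.0555, and with place in the table as a term col28a1b had 0.0621 and col5a2b 0.0722. With the main axis as a term these were 0.0691 and 0.0552. With the libraries of the compared compounds alone col28a1b had 0.0825, col6a4b against PFOS 0.0616 and COL4A2 0.0880. The call for col6a4b against PFOS was lost without FBSA replicate 3 at 5 mg/L (adjusted p = 0.0925), FBSA control 2 (0.0853) or PFOS control 2 (0.0535), and that for col4a3 against PFECHS without the same FBSA pool (0.0774), FBSA control 2 (0.0558) or PFECHS control 1 (0.0522). Without FBSA replicate 2 at 5 mg/L 11 collagens were called against PFOS, of 4100 genes called in all, and 15 against PFECHS, of 4917. Without FBSA replicate 3 there was 1 in each, of 56 and 333 genes.

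The controls of the 3 series entered these differences and were themselves unlike. The median collagen difference was −0.44 for PFOS controls minus FBSA controls, −0.51 for PFECHS controls minus FBSA controls and 0.08 for PFOS controls minus PFECHS controls. edgeR called no collagen between controls, with a background of 0.15% for PFOS against FBSA controls and 0% for the others. At an unadjusted p under 0.05 there were 14 lower collagens in PFOS than FBSA controls (background 9.61%) and 19 lower in PFECHS than FBSA controls (background 12.3%). In these 2 comparisons DESeq2 called 2 collagens (col4a3 and COL4A2, of 597 genes called) and 5 (COL4A2 and col6a4b among them, of 1222). Between PFOS and FBSA controls col4a3 differed by −0.79 ± 0.18 (adjusted p = 0.0510) and COL4A2 by −2.18 ± 0.68 (adjusted p = 0.111). In PFECHS minus FBSA controls COL4A2 gave −2.88 ± 0.71 (adjusted p = 0.0594) and col6a4b −1.61 ± 0.49 (adjusted p = 0.0725). PFOS and PFECHS controls had 0 collagens at that level (background 1.01%), and DESeq2 called none. The part of the controls in the differences between compounds was not tested.

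Between PFOS and PFECHS, which differ by the ring, edgeR called no collagen at any concentration or in the mean, where it called 0% of all genes. The median difference was 0.33, 0.35, 0.42 and 0.07 from 0.001 to 5 mg/L. At 5 mg/L the 95% interval ran from −0.22 to 0.79 for col4a3, from −0.11 to 1.60 for col28a1b, from −1.51 to 1.26 for col6a4b and from −1.19 to 1.43 for col1a1a. At an unadjusted p under 0.05 there were 0, 1, 4 and 0 collagens from 0.001 to 5 mg/L (backgrounds 0.947%, 1.4%, 1.29% and 1.06%) and 1 in the mean (background 0.899%), and DESeq2 called none. Intervals of this width leave room for sizeable differences, so the missed threshold does not show that the compounds act alike. Below 5 mg/L, PFOS and FBSA differed for col4a3 by 1.01 ± 0.25 at 1 mg/L (adjusted p = 0.292) and for col28a1b by 1.60 ± 0.45 at 0.1 mg/L (adjusted p = 0.965). In the mean col4a3 differed by 0.84 ± 0.20 (adjusted p = 0.163), and DESeq2 called col4a3 there, among 96 genes in all. edgeR called no collagen in these comparisons of PFOS or PFECHS with FBSA, and 0% of all genes. For PFOS minus FBSA 2, 3 and 3 collagens had an unadjusted p under 0.05 at 0.001, 0.1 and 1 mg/L (backgrounds 4.86%, 4.97% and 8.26%) and 7 in the mean (14.3%). For PFECHS minus FBSA there were 1, 0 and 0 (3%, 2.06% and 3.45%) and 4 in the mean (9.14%).

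**Figure D5:**
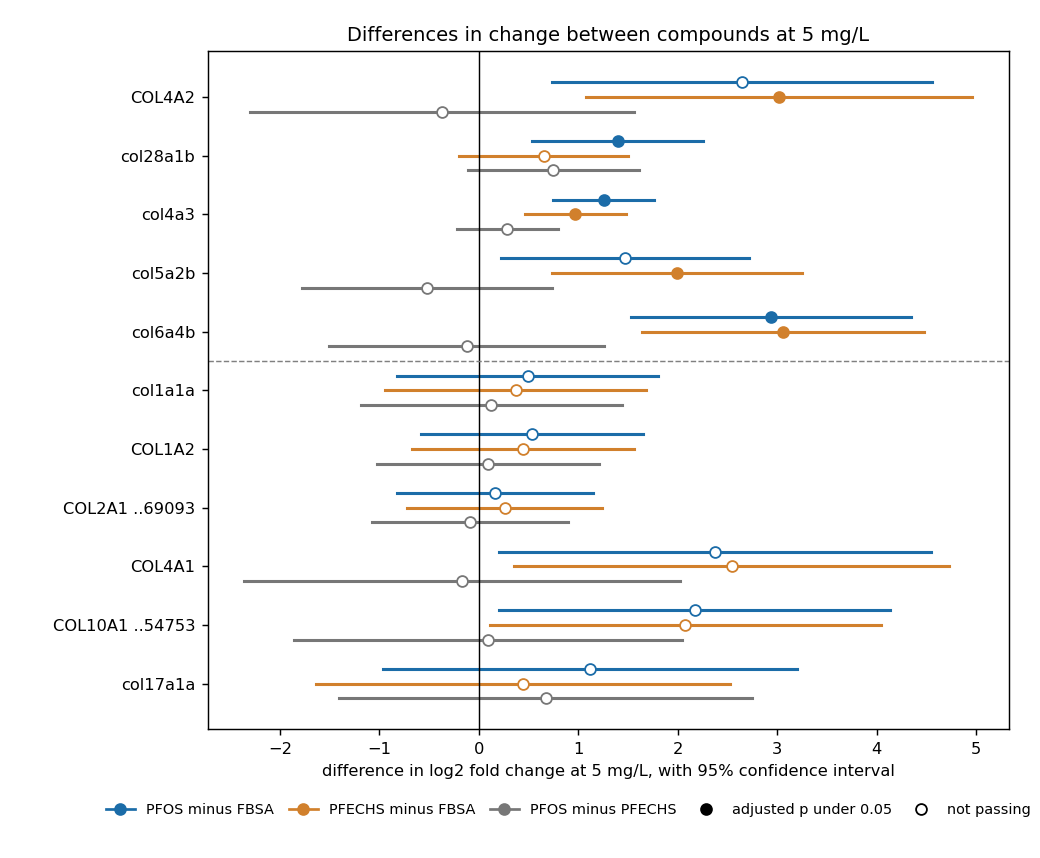
Difference between compounds in log2 fold change at 5 mg/L, with its 95% interval, for the 5 collagens called in any pair (above the dashed line) and 6 further collagens; filled points have an adjusted p below 0.05. The called points are all in pairs with FBSA, and every interval for PFOS minus PFECHS covers 0.

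Genes that modify, export, bind or cut collagens were set beside them, 110 of which were tested. In the PFOS mean their median was 0.46 with 100 of 110 estimates above 0 (background 53.6%). COLGALT1 (ENSDARG00000058270), which puts galactose on collagen hydroxylysine, was called higher in the main fit. It changed by 1.23 ± 0.21 at 0.1 mg/L (adjusted p = 0.0137) and by 0.95 ± 0.17 in the mean of the PFOS concentrations (adjusted p = 0.0326). Of all genes 0.0176% and 0.0132% were called there. A second COLGALT1 row (ENSDARG00000073974) was tested and was not called at 0.1 mg/L. The alternatives were read for collagens only, so the COLGALT1 calls were not tried under them. In PFECHS its mean estimate was 0.60 ± 0.17 with adjusted p = 0.792. The basement membrane partners of type IV collagen had a PFOS median of 0.75, collagen receptors and fibril partners 0.62, degradation genes 0.56, genes of hydroxylation, folding and secretion 0.37, and genes of processing and cross-linking 0.36. The PFECHS median over the 110 genes was 0.26.

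In FBSA at 5 mg/L 5 of the 110 rose and 3 fell, at a median of −0.025, which is no larger a share than the 5.79% and 5.44% of all genes called higher and lower there. These calls come from the fit over all libraries, as 0 of all genes were called with the FBSA libraries alone. Those that rose were AGRN, a basement membrane proteoglycan (0.78 ± 0.15, adjusted p = 0.0015), DDR1, a collagen receptor kinase (0.53 ± 0.17, adjusted p = 0.0377), MMP9, a gelatinase (1.90 ± 0.61, adjusted p = 0.0392), and both copies of the metalloproteinase inhibitor TIMP2, at 0.83 ± 0.24 for ENSDARG00000061226 (adjusted p = 0.0232) and 1.82 ± 0.56 for ENSDARG00000075261 (adjusted p = 0.0332). Those that fell were ITGA1, a chain of a collagen-binding integrin (−2.03 ± 0.56, adjusted p = 0.0200), lama2, a laminin chain of muscle basement membrane (−1.81 ± 0.55, adjusted p = 0.0303), and mia2, which takes part in the export of large cargo (−0.41 ± 0.12, adjusted p = 0.0291).

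Markers of the cell types that make collagen were mostly positive in PFOS as well, and none was called. Of all genes 53.6% were above 0 in the PFOS mean. Their median in the PFOS mean was 0.53 for 11 chondrocyte markers (10 above 0), 0.48 for 7 osteoblast markers (7), 0.41 for 10 fibroblast and tendon markers (10), 0.45 for 7 endothelial markers (7) and 0.52 for 4 basal epidermis markers (4), with skeletal muscle at 0.43 (8 of 8), the notochord at 0.17 (6 of 7), the lens at 0.21 (6 of 7) and exocrine pancreas at 0.51 (3 of 3). The summed chondrocyte markers ran from 327 to 551 CPM in PFOS controls and from 432 to 740 CPM in exposed pools, and the summed endothelial markers from 72.9 to 81.9 CPM and from 87.9 to 104 CPM. The summed fibroblast and tendon markers ran from 288 to 482 CPM and from 338 to 714 CPM, and the osteoblast markers from 22.2 to 26.9 CPM and from 24.4 to 40.9 CPM. The summed basal epidermis markers ran from 1130 to 1512 CPM in controls and reached both below and above that in exposed pools, from 609.7 to 1861 CPM. In the PFOS groups used here at most 1 marker of a list was at 0 in any pool of a group. The part of these cell types in the PFOS collagen estimates was not tested.

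In FBSA at 5 mg/L the chondrocyte median was 0.39, the osteoblast median −0.37, the fibroblast and tendon median 0.04, the endothelial median −0.04, the muscle median −0.28, the basal epidermis median −0.19 and the notochord median 0.52. Lens and pancreas had called markers there, with 5 of 7 lens markers called lower (median −1.15) and 2 of 3 exocrine pancreas markers called lower (median −2.93), where 5.44% of all genes were called lower. Their part in the fall of col6a4b was not tested. With the FBSA libraries alone 0 of all genes were called in this comparison, these markers included.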

How the data were processed

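The data are RNA sequencing of 44 zebrafish embryo pools in 15 groups. The deposited values are expected counts per gene, that is, the authors' estimated counts of reads: none is negative, the share of fractional values per library is 54.1% to 79.8%, and library totals differ. Per the submitters' processing notes, FastQC, MultiQC and Trimmomatic were applied to the reads. For the counting program and the genome build nothing is given in the sources used here. All columns were mapped to samples by group and replicate number, taken from the labels.

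Counts were rounded, and filterByExpr in edgeR, run by group, kept 22703 of 25859 genes. One fit over all libraries with edgeR 4.0.16 in R 4.3.3 (TMM factors, quasi-likelihood test, 29 residual degrees of freedom, common dispersion 0.068) gave 36 contrasts: each concentration or their equally weighted mean against the compound's own controls, an even-step trend among exposed groups, differences between compounds and between controls. P-values were adjusted by Benjamini-Hochberg across the tested genes (threshold 0.05). Log2 CPM values used a prior count of 2. Symbols came from a name table covering 23598 identifiers, and neighbours from the RefSeq table of assembly GRCz12tu. Pandas 2.3.3, numpy 2.4.6 and matplotlib 3.10.9 were used for summaries and plots.

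The members, the collagen-handling and marker lists, and the tests were chosen with earlier results of these data known. Named genes were every called collagen, or the 3 with the smallest p where none was called, the highest-count gene of each class, a panel of types I, II, IV, VI, X, XI and XVII given whatever their result, and at most 3 handling genes per step. COL5A2, col27a1b and COL12A1 were named besides these, and their own estimates were not followed under the alternatives. The genes shown for their spread, their place against the main axis or their neighbour in the genome were chosen after their values were seen. Alternatives were DESeq2 1.42.0, relative log expression factors, no filter, the main axis or the last 11 table columns as a term, the replicate number as a block, the compared compounds' libraries alone and leaving out each pool. FBSA controls 2 and 3 stood in those last 11 columns, while no FBSA pool at 5 mg/L and no PFOS or PFECHS control did. Place in the table is thus partly confounded with FBSA exposure at 5 mg/L and with the differences from FBSA. The calculation was tested on simulated data.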

Additional observations from a re-analysis of the deposited data

Results flagged for a closer look

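The change at 5 mg/L differed between compounds for 5 collagens, by the test of the difference itself (edgeR's quasi-likelihood test, adjusted over all genes), and most of these calls were lost under some alternative. In PFOS minus FBSA 3 of 57 collagens were called (5.26%), beside 4.92% of all genes. In PFECHS minus FBSA 4 of 57 were called (7.02%), beside 9.17% of all genes. The collagen shares were thus near or below those of all genes. PFOS minus FBSA was 1.26 ± 0.25 (SE) for col4a3 with adjusted p = 0.00864, 2.93 ± 0.69 for col6a4b with adjusted p = 0.0185 and 1.39 ± 0.42 for col28a1b with adjusted p = 0.0485. PFECHS minus FBSA was 3.06 ± 0.70 for col6a4b with adjusted p = 0.00945, 0.97 ± 0.25 for col4a3 with adjusted p = 0.0169, 1.99 ± 0.62 for col5a2b with adjusted p = 0.0389 and 3.02 ± 0.95 for COL4A2 with adjusted p = 0.0419. No alternative tried ended the call for col4a3 against PFOS or for col6a4b against PFECHS. With the libraries of the compared compounds alone the calls ended for col28a1b (adjusted p = 0.0825), for col6a4b against PFOS (0.0616) and for COL4A2 (0.0880). With the main axis as a term they ended for col28a1b (0.0691) and col5a2b (0.0552), with place in the table for the same genes (0.0621 and 0.0722), and with no filter for col28a1b (0.0555). The call for col4a3 against PFECHS was lost without FBSA replicate 3 at 5 mg/L (0.0774). FBSA controls stood above PFECHS controls for col6a4b by an estimate that missed the threshold (PFECHS minus FBSA −1.61 ± 0.49, adjusted p = 0.0725). For col4a3 PFOS minus FBSA controls gave −0.79, and for COL4A2 PFECHS minus FBSA controls gave −2.88. Both missed the threshold in the main fit. DESeq2 called both (adjusted p = 0.00631 and 0.00885) and also the col6a4b difference between PFECHS and FBSA controls (adjusted p = 0.0257). Without FBSA control 3 edgeR called the same control differences for col6a4b (adjusted p = 0.0370), col4a3 (0.0475) and COL4A2 (0.0309). The col4a3 difference between controls was also called with relative log expression factors (0.0497) and with the main axis as a term (0.0257). The part of the controls was not tested.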

How the results depend on the processing

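Over the alternatives 603 numbers of called collagens were labelled as kept and 47 as moved. A small change, such as 2 in place of 3, was labelled as kept. Most comparisons had 0 called in the main fit. The numbers above 0 were in FBSA at 5 mg/L, the FBSA trend and the differences with FBSA at 5 mg/L. These moved in several settings, as given below. Without the filter on low counts 2 collagens in place of 3 were called in PFOS minus FBSA at 5 mg/L, as col28a1b was lost. No number was labelled as moved in that setting. Same-numbered pools did not in general deviate together (31 of 86 pairs correlated above 0.1, median −0.018). PFOS at 0.1 and 5 mg/L did so for all 3 numbers (0.22, 0.29 and 0.47), and replicate 1 of the FBSA controls and of FBSA at 0.001, 0.1 and 1 mg/L did so in each pair (0.45 to 0.61). No exposed group did so with its controls in all numbers, so the numbers were not taken to pair the samples. The block changed no number of called collagens: with the replicate block 1 collagen was called in FBSA at 5 mg/L, 3 in PFOS minus FBSA and 4 in PFECHS minus FBSA at 5 mg/L. With relative log expression factors 1 collagen, col4a3, was called between PFOS and FBSA controls (of 40 genes called).

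With the main axis as a term, 19 collagens were called in FBSA at 5 mg/L (of 4529 genes called) and 12 in the FBSA trend (of 3236). There were 5 in PFOS minus FBSA (of 1786) and 8 in PFECHS minus FBSA at 5 mg/L (of 3129), though col28a1b and col5a2b lost their calls. With this term 3 were called between PFOS and FBSA controls (of 592) and 2 between PFECHS and FBSA controls (of 27). The PFOS mean then turned to −0.11 for COL1A1, −0.12 for col1a1a, −0.059 for COL1A2, −0.36 for col17a1a and −0.24 for col17a1b. With place in the table as a term, 1 was called in PFOS at 5 mg/L (of 92 genes called), 4 in FBSA at 5 mg/L (of 2226) and 2 in the FBSA trend (of 1685). DESeq2 called 1 in PFOS at 0.1 mg/L (of 41 genes called), 1 at 5 mg/L (of 100) and 1 in the mean (of 88). It called 2 in FBSA at 5 mg/L (of 3484), 2 in its trend (of 2444) and 1 in the mean of PFOS minus FBSA (of 96). Between PFOS and FBSA controls it called 2 (of 597), and between PFECHS and FBSA controls 5 (of 1222). With the compared compounds' libraries alone the numbers were 5 in PFOS at 0.1 mg/L (of 376 genes called), 1 at 5 mg/L (of 40) and 4 in the mean (of 246). In FBSA at 5 mg/L and in its trend that setting called 0 collagens and 0 of all genes. In PFOS minus FBSA at 5 mg/L it called 1 collagen (of 210 genes). The causes were not tested.

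Leaving out 1 pool at a time gave 0 to 8 called collagens in FBSA at 5 mg/L, 0 to 13 in the FBSA trend, 1 to 11 in PFOS minus FBSA and 1 to 15 in PFECHS minus FBSA at 5 mg/L, 0 to 1 between PFOS and FBSA controls and 0 to 7 between PFECHS and FBSA controls. The high numbers of FBSA at 5 mg/L came without its replicate 2, where 5197 genes were called against control and 3909 in the trend. In the same fit 4100 genes were called in PFOS minus FBSA and 4917 in PFECHS minus FBSA. The highest numbers between controls came without FBSA control 3, with 84 genes called against PFOS controls and 1653 against PFECHS controls. The collagen median of the PFOS mean stayed between 0.45 and 0.74 over these fits, and that of FBSA at 5 mg/L between −0.65 and 0.08. Low-count genes such as col28a1b and col5a2b rest on few reads per pool.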
